A study of Mus musculus with 20 samples.

Results

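The genes described here load and run the DNA replication machinery or open the way into it: the 6 subunits of the minichromosome maintenance helicase (Mcm2 to Mcm7), the sliding clamp Pcna, and the 3 D-type cyclins (Ccnd1, Ccnd2 and Ccnd3). Their probes were taken by gene name alone, as all noncontrol probes whose name in the scanner files is 1 of these 10 symbols. The 10 genes themselves were chosen with earlier results of these data known. This gave 10 of the 27962 gene names and 14 of the 41174 distinct noncontrol probes on the array, with 3 probes for Ccnd2, 2 each for Mcm3 and Mcm4, and 1 for each of the other 7 genes. All 14 were well above background on all 20 arrays, none was saturated on any, and all passed the filter on dim probes. The tissue was whole leg muscle of male ICR mice aged 6 months. The 4 groups were soleus after 24 h of hind-limb suspension (HLS, with the head tilted down by 45°), soleus of mice that moved about freely for 24 h (control), gastrocnemius after HLS and gastrocnemius of controls. Each group had 5 one-colour arrays from 5 animals. Animals were numbered by the replicate number in the labels. Both muscles with 1 number in an arm were taken to come from the same mouse, while HLS and control mice were different animals. No mouse carried an allele or drug in these labels, and the mice were caged singly.

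The ring of Mcm2 to Mcm7 is loaded onto replication origins in G1, a step known as licensing, and unwinds DNA in S phase. Pcna encircles DNA behind the helicase, holds the polymerases on the template and also serves in DNA repair. The D-type cyclins bind Cdk4 and Cdk6 in G1, and these kinases phosphorylate the retinoblastoma family and so free E2F factors, which drive many replication genes. Nuclei inside mature muscle fibres do not divide, so in adult muscle these genes are usually read as marks of the satellite cells, fibroblasts, vessel cells and leukocytes between the fibres, although D-type cyclins are also transcribed in fibres.

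The licensing genes are textbook E2F targets, so the windows around their start sites were searched for E2F-type letters. The searched motifs were TTTCCCGC, TTTGGCGC, TTTCGCGC and TTTGCCGC on both strands, in RefSeq windows of 250 bases before to 50 bases after a start (build GRCm38.p6). The windows of Mcm3, Mcm5, Mcm6 and Mcm7 held at least 1 motif, those of Mcm2, Pcna and Ccnd3 held none, and across all 32851 windows 2.26% held one. Mcm4, Ccnd1 and Ccnd2 are not in that table. The 4 windows with a match are shown. Capitals mark the motifs.
Mcm3 (chr1:20820263-20820562, minus strand): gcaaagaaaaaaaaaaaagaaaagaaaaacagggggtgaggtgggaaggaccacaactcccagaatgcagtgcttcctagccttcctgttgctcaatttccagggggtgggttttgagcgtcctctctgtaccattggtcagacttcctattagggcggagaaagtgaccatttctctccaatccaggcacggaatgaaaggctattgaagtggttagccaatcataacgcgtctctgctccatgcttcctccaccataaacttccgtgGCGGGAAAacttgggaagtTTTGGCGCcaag
Mcm5 (chr8:75109259-75109558, plus strand): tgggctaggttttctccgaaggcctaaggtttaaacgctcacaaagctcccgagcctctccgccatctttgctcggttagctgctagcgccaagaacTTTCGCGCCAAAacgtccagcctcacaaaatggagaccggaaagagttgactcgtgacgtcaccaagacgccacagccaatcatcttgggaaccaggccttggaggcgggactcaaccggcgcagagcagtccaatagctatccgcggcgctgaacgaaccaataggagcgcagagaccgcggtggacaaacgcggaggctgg
Mcm6 (chr1:128359656-128359955, minus strand): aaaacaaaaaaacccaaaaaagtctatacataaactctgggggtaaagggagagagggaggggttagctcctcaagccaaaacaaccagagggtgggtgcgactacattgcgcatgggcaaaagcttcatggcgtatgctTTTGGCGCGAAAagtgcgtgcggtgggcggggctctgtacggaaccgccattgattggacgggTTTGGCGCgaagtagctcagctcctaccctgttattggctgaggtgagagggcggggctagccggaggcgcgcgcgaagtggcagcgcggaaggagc
Mcm7 (chr5:138171834-138172133, minus strand): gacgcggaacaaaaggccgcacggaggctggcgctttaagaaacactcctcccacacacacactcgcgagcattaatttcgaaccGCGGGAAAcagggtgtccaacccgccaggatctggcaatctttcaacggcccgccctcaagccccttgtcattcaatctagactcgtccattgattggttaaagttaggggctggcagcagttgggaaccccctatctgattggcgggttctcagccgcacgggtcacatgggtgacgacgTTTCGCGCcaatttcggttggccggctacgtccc

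The matches lay at positions 20 and 39 in Mcm3, counted from the start site, and at -165 and 17 in Mcm7. In Mcm5 the matches at -153 and -149 overlap on opposite strands, and in Mcm6 those at -110 and -106 overlap in the same way, with a separate match at -47. A further Mcm7 window at another start held no match. A match is a string of letters and not a measured binding site.

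Levels are given as relative intensity, the spot intensity as a multiple of the 75th percentile of its array, and levels of different probes are not compared with each other. Differences are on the log2 scale, HLS minus control or soleus minus gastrocnemius, ± SE from limma, and a probe passed at an adjusted p below 0.05 over all 37373 probes tested. P-values rest on the spread between arrays of a group, in which animals, slides and scan days are mixed. The main model does not pair both muscles of a mouse. The 75th percentile ranged from 385.5 to 736.1 between arrays, 80.7% to 93.1% of spots were well above background, and precision is limited by having 5 arrays a group. Fbxo32, the muscle ubiquitin ligase known to rise with unloading, rose by 2.17 in HLS soleus and by 2.43 in HLS gastrocnemius. All 12 skeletal muscle markers were above background on every array. Soleus HLS array 1 stood apart: the slow troponin genes Tnni1 and Tnnt1 were at log2 levels of 4.15 and 6.70 on it, against 6.72 to 7.35 and 8.35 to 8.75 on the other HLS soleus arrays. Ckm and Myh4 were high on it, at 7.37 and 9.47, against 5.83 to 6.26 and 4.21 to 8.51 on the other HLS soleus arrays. Soleus results are therefore also given without that array where it matters. Arrays shared slides and scan days unevenly: 1 slide held 3 HLS and 1 control soleus arrays, 1 slide held 1 HLS and 3 control gastrocnemius arrays, and no slide held both muscles. In RNA of whole muscle, fewer cells of a type and less RNA per cell cannot be told apart.

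In HLS soleus, Ccnd1 and Ccnd2 fell, Mcm6 fell, and Mcm7 rose, while the other members did not pass the test. Of the 14 member probes, 6 passed (42.9%), against 5.42% of all probes tested. They comprised 5 lower probes, against 3.18% of all probes that were lower, and 1 higher probe, against 2.24%. The median difference over the member probes was -0.43 and that over all probes 0.05. In HLS gastrocnemius, Ccnd1, Ccnd2, Mcm2, Mcm5 and Mcm6 fell and no member rose. There 6 of 14 member probes passed, against 2.81% of all probes, and all 6 were lower, against 1.72% of all probes, while 0 were higher, against 1.09%. The member median was -0.59 and that of all probes 0.01. Both muscles of an HLS mouse share the animal, so the muscles are not independent. The members were chosen with earlier results of these data known, so their shares describe them and do not test them as a set.

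The largest difference among the members was that of Ccnd1, the cyclin best known for coupling growth signals to G1 entry. In soleus its relative intensity was 0.215, 0.236, 0.285, 0.267 and 0.148 in HLS animals 1 to 5, against 0.611, 0.913, 0.869, 1.03 and 0.761 in control animals 1 to 5. Every HLS soleus lay below every control soleus. The difference was -1.88 ± 0.20 (adjusted p = 6.6e-06), which is 3.67-fold lower. In gastrocnemius the probe read 0.179, 0.245, 0.297, 0.241 and 0.171 in HLS animals, against 0.52, 0.807, 0.932, 0.686 and 0.653 in controls. Again the groups did not overlap, and HLS animal 5 was lowest in both muscles. The gastrocnemius difference was -1.67 ± 0.20 (adjusted p = 6.3e-05), which is 3.18-fold lower. The Ccnd1 probe is printed 10 times on each array, and its spots spread by a median of 0.12 (log2 SD) within an array. Within the slide shared by both soleus arms the difference was -1.64 (-1.55 without HLS array 1), and within the shared scan day -1.76. In gastrocnemius it was -2.06 within the shared slide and -1.98 within the shared scan day, with 1 HLS array in each. With slide as a fixed block the call was lost in soleus (adjusted p = 0.16) and in gastrocnemius (adjusted p = 0.058). Blocking on scan day left the call in place in both muscles (adjusted p = 0.00024 in soleus and 0.034 in gastrocnemius).

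Ccnd2, a D-type cyclin with a role in myoblast and satellite cell proliferation in mice, fell on 3 of its 3 probes in HLS soleus and on 2 in HLS gastrocnemius. The 3 probes target 1 gene and correlated at 0.92 to 0.99 over the 20 arrays, so they are not separate evidence. Probe A_51_P433228 read 1.94, 2.93, 2.99, 3.23 and 1.25 in HLS soleus, against 5.14, 3.73, 4.61, 4.12 and 4.11 in control soleus. HLS animal 5 was the lowest and the groups did not overlap. Its difference was -0.89 ± 0.20 (adjusted p = 0.0088). The other soleus differences were -0.92 for A_52_P514391 and -0.83 for A_52_P53906 (adjusted p = 0.0082 and 0.014). Without HLS array 1 the 3 differences were -0.82, -0.92 and -0.76, with adjusted p of 0.018 to 0.04. On the 10 soleus arrays alone none of the 3 passed (adjusted p = 0.066 to 0.1). In gastrocnemius A_51_P433228 read 1.76, 2.12, 2.12, 1.82 and 1.42 after HLS, against 3.04, 3.37, 3.54, 3.83 and 3.28 in controls, again without overlap. The difference was -0.90 ± 0.20 (adjusted p = 0.014), and that of A_52_P53906 was -0.86 (adjusted p = 0.019). A_52_P514391 stood at -0.55 (adjusted p = 0.18), although its groups did not overlap either. Without gastrocnemius HLS array 5 neither probe passed (-0.81 each, adjusted p = 0.052 and 0.059), and A_52_P53906 also did not without control array 4 (adjusted p = 0.055). Within the slide shared by both arms the A_51_P433228 difference was -0.67 in soleus (-0.47 without HLS array 1) and -1.01 in gastrocnemius. Within the shared scan day it was -0.75 in soleus (-0.54 without that array) and -0.95 in gastrocnemius. With slide as a fixed block it did not pass (adjusted p = 0.86 in soleus and 0.5 in gastrocnemius), nor when blocked on scan day (adjusted p = 0.11 and 0.4).

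Ccnd3, the D-type cyclin that accumulates as myoblasts leave the cycle and differentiate, did not pass in either muscle. Its relative intensity ranged from 1.46 to 1.82 in HLS soleus, against 1.38 to 1.78 in control soleus, and from 1.24 to 1.42 in HLS gastrocnemius, against 1.3 to 1.94 in control gastrocnemius. The soleus difference was 0.02, with a 95% interval of -0.21 to 0.24. That of gastrocnemius was -0.23, with an interval of -0.46 to -0.01 and an adjusted p of 0.32. The interval in soleus thus left out differences of the size seen for Ccnd1 and Ccnd2.

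**Figure D1:**
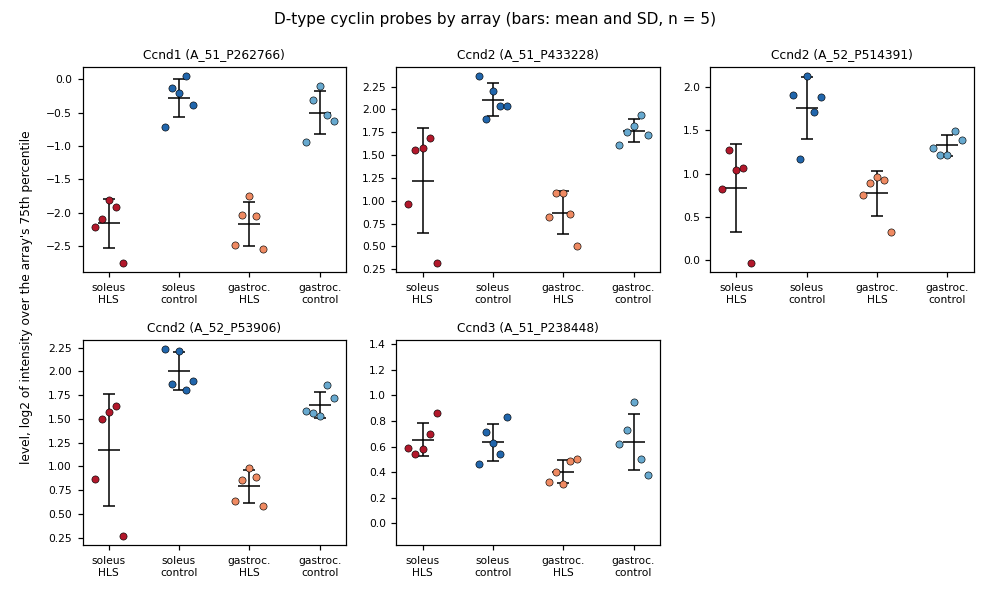
Log2 of relative intensity (vertical axis, multiples of the array's 75th percentile) of the 5 D-type cyclin probes in the 4 groups, 1 point per array, with the mean and SD of 5 arrays as bars. The HLS arrays of Ccnd1 lie below all control arrays in both muscles, and those of Ccnd3 lie among them. Vertical axes differ between panels and do not start at 0.

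Among the helicase subunits, Mcm6 was lower after HLS in both muscles. Mcm6 belongs to the catalytic core of the ring together with Mcm4 and Mcm7. Its probe read 0.981, 2.38, 1.52, 1.54 and 1.87 in HLS soleus, against 2.34, 3.01, 2.42, 4.55 and 2.37 in control soleus. HLS animal 2 overlapped the lower controls, and control animal 4 was far above the rest. The difference was -0.83 ± 0.22 (adjusted p = 0.031). It did not pass without HLS array 1 (-0.66, adjusted p = 0.086) or without control array 4 (-0.66, adjusted p = 0.1), and 3 more single arrays also ended the call. On the 10 soleus arrays alone it did not pass either (adjusted p = 0.1). In gastrocnemius the values were 0.852, 1.09, 0.935, 0.756 and 1.13 after HLS, against 1.12, 1.8, 2.11, 1.79 and 2.02 in controls. Only control animal 1 fell into the HLS range. The difference was -0.88 ± 0.22 (adjusted p = 0.037), and leaving out any 1 of 8 arrays of that muscle took it past the threshold (adjusted p up to 0.097). Within the shared slide Mcm6 stood at -0.63 in soleus (-0.32 without HLS array 1) and -1.21 in gastrocnemius, and within the shared scan day at -0.90 (-0.58 without that array) and -1.02. With slide or scan day as a fixed block it did not pass in soleus (adjusted p = 0.88 and 0.096) or gastrocnemius (adjusted p = 0.42 and 0.47).

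Mcm5, which with Mcm2 forms the gate of the ring, passed in gastrocnemius. It read 0.095, 0.132, 0.128, 0.135 and 0.121 in HLS gastrocnemius, against 0.214, 0.256, 0.411, 0.236 and 0.195 in control gastrocnemius. The groups did not overlap and the difference was -1.06 ± 0.19 (adjusted p = 0.0034). With another background correction (normexp) it shrank to -0.57 and still passed. In soleus Mcm5 read 0.222, 0.181, 0.153, 0.175 and 0.173 after HLS, against 0.218, 0.331, 0.19, 0.346 and 0.215 in controls. HLS animal 1 lay among the controls, and the difference of -0.49 ± 0.19 did not pass (adjusted p = 0.17). Within the shared slide the differences were -1.49 in gastrocnemius and -0.23 in soleus. Within the shared scan day they were -1.41 and -0.46. The gastrocnemius call was lost with slide (adjusted p = 0.18) or scan day (adjusted p = 0.11) as a fixed block.

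Mcm2, the subunit that also binds histones, passed in gastrocnemius and not in soleus. In gastrocnemius it read 0.253, 0.35, 0.345, 0.386 and 0.378 after HLS, against 0.462, 0.498, 0.575, 0.486 and 0.601 in controls. Every HLS array lay below every control array, with a difference of -0.62 ± 0.13 (adjusted p = 0.0073), which turned to 0.15 when arrays were scaled to spike-in RNA. In soleus it read 0.381, 0.356, 0.301, 0.34 and 0.436 after HLS, against 0.279, 0.353, 0.33, 0.331 and 0.337 in controls. These groups overlapped, and the difference was 0.15 with a 95% interval of -0.11 to 0.41. Control gastrocnemius was the high group, and the ranges of the other 3 groups overlapped. Within the shared slide the gastrocnemius difference was -1.13, and within the shared scan day -1.05, both resting on HLS array 1, the lowest of its group. With slide as a fixed block its adjusted p was 0.058, and with scan day 0.042.

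Mcm7, another subunit of the catalytic core, was the only member that rose. It read 2.33, 2.24, 2.24, 2.15 and 2.14 in HLS soleus, against 1.55, 1.3, 1.66, 1.79 and 1.82 in control soleus. The HLS arrays lay above all controls and close to each other, with an SD of 0.05 on the log2 scale, against 0.19 in controls. The difference was 0.46 ± 0.11 (adjusted p = 0.017), or 1.38-fold, and 0.44 without HLS array 1 (adjusted p = 0.037). Fitted on the 10 soleus arrays alone it did not pass (adjusted p = 0.074). Within the shared slide it was 0.32 and within the shared scan day 0.49, and its adjusted p was 0.86 with slide and 0.039 with scan day as a fixed block. In gastrocnemius Mcm7 read 1.93, 1.64, 1.52, 1.39 and 1.5 after HLS, against 1.39, 1.41, 1.87, 1.6 and 1.59 in controls. The groups overlapped, with a difference of 0.02 and a 95% interval of -0.21 to 0.26.

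For Mcm3 and Mcm4 the 2 probes of a gene disagreed, so no single value stands for either gene. Mcm3 probe A_51_P324934 read 0.593, 1.22, 0.961, 1.14 and 0.881 in HLS soleus, against 1.05, 1.47, 1.03, 2.38 and 1.18 in control soleus. The difference was -0.53 ± 0.22 (adjusted p = 0.19), with overlap. In gastrocnemius it read 0.438, 0.583, 0.612, 0.669 and 0.494 after HLS, against 0.771, 0.895, 1.25, 0.887 and 0.931 in controls. These groups did not overlap, yet the difference of -0.76 ± 0.22 missed the threshold (adjusted p = 0.067). The other Mcm3 probe, A_52_P364776, stood at 0.01 in soleus and -0.18 in gastrocnemius, and the pair correlated at 0.37 over 20 arrays. Mcm4 probe A_51_P356762 stood at -0.29 in soleus (adjusted p = 0.32) and -0.32 in gastrocnemius (adjusted p = 0.32). Its partner A_52_P231545, designed on a cDNA clone rather than a RefSeq transcript, stood at -0.04 and -0.02, and the pair correlated at -0.09. A_51_P324934 and A_51_P356762, which target different genes, correlated at 0.92.

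Pcna missed the threshold in both muscles although its groups did not overlap in either. It read 2.75, 3.04, 3.18, 3.18 and 2.55 in HLS soleus, against 3.46, 3.3, 3.71, 5.08 and 3.71 in control soleus. In gastrocnemius it read 2.36, 2.22, 2.49, 2.37 and 2.52 after HLS, against 2.68, 3.21, 3.65, 3.08 and 2.92 in controls. The differences were -0.38 ± 0.12 (adjusted p = 0.061) and -0.37 ± 0.12 (adjusted p = 0.092), or 1.3-fold lower in soleus and 1.29-fold lower in gastrocnemius. In soleus the adjusted p fell below the threshold with normexp (0.025), with slide as a random block (0.047), among probes above background on all arrays (0.047), and without control array 2 (0.039). The consensus correlation of that random block was -0.0298. With slide as a fixed block the soleus difference was -0.31 (adjusted p = 0.9), blocked on scan day -0.35 (adjusted p = 0.25), and on the 10 soleus arrays alone -0.38 (adjusted p = 0.22). In gastrocnemius these were -0.44 (adjusted p = 0.74), -0.39 (adjusted p = 0.71) and -0.37 (adjusted p = 0.055). The 10 Pcna spots of an array spread by a median of 0.12 (log2 SD). In all, 5 member probes had groups without overlap in soleus, against 4.89% of all probes: 4 were lower in HLS soleus, against 2.71%, and 1 was higher, against 2.18%. In gastrocnemius 8 had groups without overlap, against 7.07% of all probes: 8 were lower in HLS gastrocnemius, against 4.03%, and 0 were higher, against 3.04%.

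**Figure D2:**
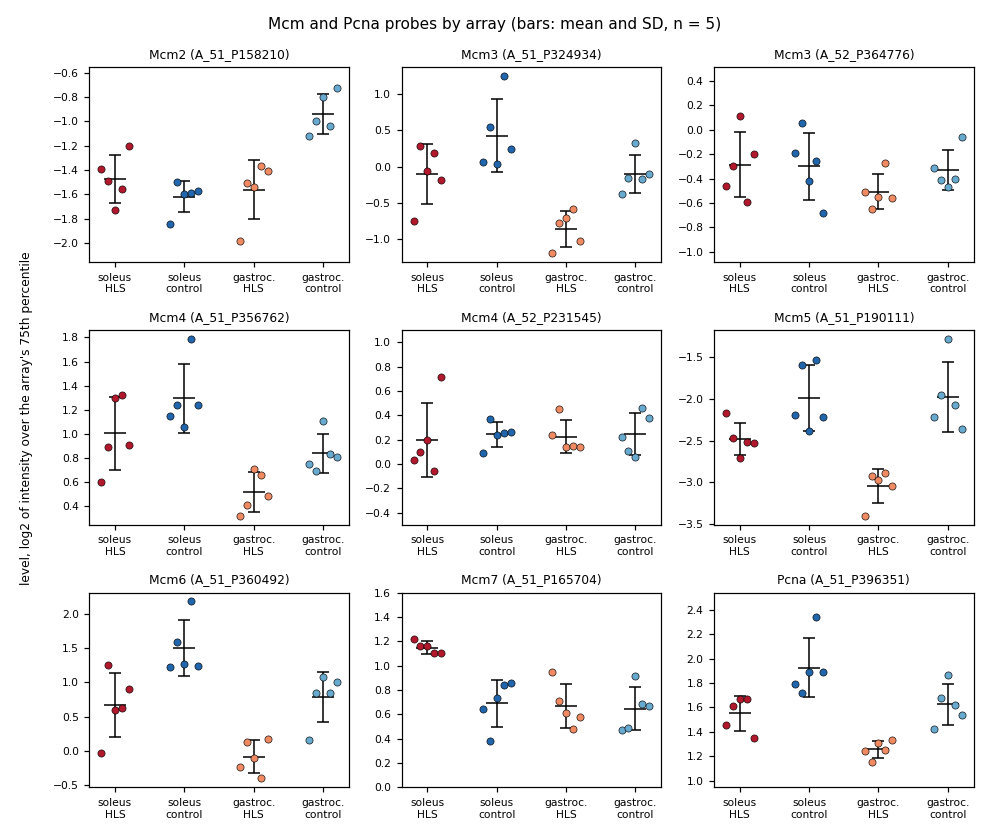
Log2 of relative intensity (vertical axis, multiples of the array's 75th percentile) of the 8 Mcm probes and the Pcna probe in the 4 groups, 1 point per array, with the mean and SD of 5 arrays as bars. Mcm7 is highest in HLS soleus, Mcm2 is highest in control gastrocnemius (on this scale; scaled to spike-in RNA its differences from HLS gastrocnemius and control soleus turn), and the second probes of Mcm3 and Mcm4 show no separation of the groups. Vertical axes differ between panels and do not start at 0.

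The difference between the muscles in their response was tested as an interaction, the soleus difference minus the gastrocnemius difference. None of the 14 member probes passed, against 0.0321% of all probes (12 of 37373, with 0.00268% higher and 0.0294% lower). An unadjusted p below 0.05 was reached by 2258 of the 37373 probes and by 3 member probes. These were Mcm2 at 0.77 ± 0.18 (unadjusted p = 3e-04, adjusted p = 0.28), Mcm7 at 0.44 ± 0.16 (unadjusted p = 0.012, adjusted p = 0.65) and Mcm5 at 0.57 ± 0.27 (unadjusted p = 0.048, adjusted p = 0.82). For Mcm2, Mcm5 and Mcm7, which passed in 1 muscle alone, a different response of the muscles was therefore not shown. Scaled to spike-in RNA, the interaction of Mcm2 turned to -0.27 (adjusted p = 0.24), that of Mcm5 to -0.47 (adjusted p = 0.13) and that of Mcm7 to -0.60 (adjusted p = 0.0049). The 95% intervals of the interaction were -0.79 to 0.37 for Ccnd1, -0.57 to 0.59 for Ccnd2 probe A_51_P433228 and -0.34 to 0.33 for Pcna. Differences between the muscles inside these bounds were not excluded.

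**Figure D3:**
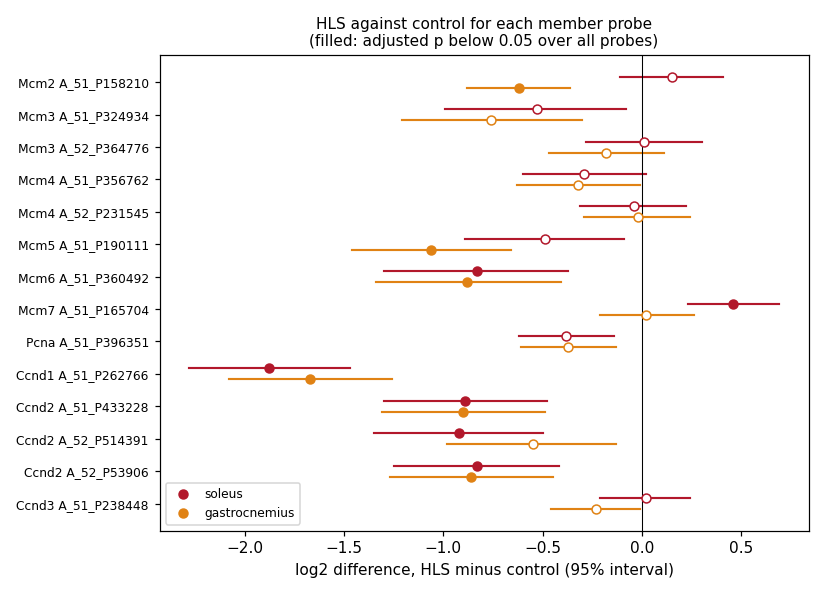
Log2 difference, HLS minus control (horizontal axis), of each of the 14 member probes in soleus (red) and gastrocnemius (orange), with 95% intervals; filled points have an adjusted p below 0.05. Ccnd1 lies farthest from 0 in both muscles and Mcm7 in soleus is the only filled point above 0. Values are relative to the array's 75th percentile; scaled to spike-in RNA, Mcm2 in gastrocnemius stands at 0.15 and Mcm7 in soleus at 0.20, neither past the threshold.

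The direction of a difference depends on what the arrays are scaled to. The E1A spike-in probes averaged a log2 level of 1.75 ± 0.20 in HLS soleus and 1.49 ± 0.04 in control soleus, and 1.77 ± 0.13 in HLS gastrocnemius and 2.55 ± 0.08 in control gastrocnemius (SD, n = 5 each). Scaled to E1A, the median of all probes shifted to -0.21 in the soleus comparison and to 0.79 in the gastrocnemius comparison. In gastrocnemius Mcm2 then stood at 0.15, Mcm5 at -0.28, Mcm6 at -0.10 and the Ccnd2 probes A_51_P433228 at -0.12, A_52_P53906 at -0.08 and A_52_P514391 at 0.23, none past the threshold, while Ccnd1 passed at -0.89 (adjusted p = 0.00093). Pcna (0.41), Ccnd3 (0.54) and Mcm7 (0.80) were then higher in HLS gastrocnemius and passed. In soleus Mcm7 stood at 0.20 and did not pass (adjusted p = 0.34), and Mcm5 (-0.75), Pcna (-0.64), Mcm3 probe A_51_P324934 (-0.79) and Mcm4 probe A_51_P356762 (-0.55) then passed. Either scaling shifts all probes of an array by the same amount, so values relative to the median of all probes are equal under both by arithmetic. In gastrocnemius these values were -1.68 for Ccnd1, -1.08 for Mcm5, -0.89 for Mcm6 and -0.64 for Mcm2. In soleus they were -1.93 for Ccnd1, -0.89 for Mcm6 and 0.41 for Mcm7. The falls and rises given here are thus relative to the bulk of probes on the array.

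Between the muscles of controls, 3 member probes passed (21.4%), against 33.1% of all probes, with 2 higher in soleus, against 11.1%, and 1 lower, against 22%. Groups without overlap made up 21.4% of all probes (7.21% higher, 14.2% lower) and 2 of the 14 member probes. Mcm2 was lower in control soleus than in control gastrocnemius, by -0.68 ± 0.13 (adjusted p = 4e-04), with no overlap, but stood at 0.37 when scaled to spike-in RNA. Mcm6 was higher in soleus, by 0.71 ± 0.22 (adjusted p = 0.019), as was Mcm4 probe A_51_P356762, by 0.46 ± 0.15 (adjusted p = 0.023). Without soleus control array 4 or gastrocnemius control array 1, Mcm6 stood at 0.54 or 0.56 (adjusted p = 0.064 for both) and Mcm4 at 0.34 or 0.44 (adjusted p = 0.076 and 0.051), and neither passed. Mcm4 also did not pass without gastrocnemius control array 2 (0.42, adjusted p = 0.055). The 3 cyclins did not pass, at 0.22 for Ccnd1, 0.34 to 0.43 for Ccnd2 and 0.00 for Ccnd3. With the animal as a block, which pairs the 2 muscles of a mouse, Ccnd2 probe A_52_P514391 also passed (0.43, adjusted p = 0.038). After HLS, 5 member probes passed, all higher in soleus (35.7%), against 30.6% of all probes, of which 11.5% were higher and 19% lower. Of the 14, 4 lay higher in soleus without overlap (Mcm5, Mcm7, Pcna and Ccnd3), against 6.92% of all probes, and 0 lower, against 10.7% (either way 17.6%). The 5 probes that passed were Mcm3 probe A_51_P324934 (0.75), Mcm4 probe A_51_P356762 (0.49), Mcm5 (0.57), Mcm6 (0.76) and Mcm7 (0.48). With the animal as a block Mcm5 did not pass (adjusted p = 0.063). Without soleus HLS array 5 the Ccnd2 probes A_51_P433228 (0.58) and A_52_P53906 (0.61) and Pcna (0.35) passed too. Mcm5 did not pass without soleus HLS array 1 (0.49, adjusted p = 0.072), 2 (0.56) or 4 (0.58) or gastrocnemius HLS array 1 (0.48) or 5 (0.56), and Mcm4 did not without soleus HLS array 3 or 4 (0.41 for both). Scan days held no control arrays of both muscles. Within the day shared by 3 soleus and 4 gastrocnemius HLS arrays, the same 5 probes stood at 0.60, 0.37, 0.51, 0.66 and 0.59. Without soleus HLS array 1 they stood at 0.89, 0.53, 0.37, 0.98 and 0.57. Blocking on scan day left 1 member probe in each muscle comparison, Mcm2 in controls (-1.21) and Mcm7 after HLS (0.59). The Mcm2 value rests on gastrocnemius HLS array 1, the only HLS array of that muscle scanned on the day of its controls. That array was the lowest of its group for Mcm2 (0.253, against 0.345 to 0.386 on the others).

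In order of mean relative intensity, Ccnd1 stood at 0.837 in control soleus, 0.719 in control gastrocnemius, 0.230 in HLS soleus and 0.227 in HLS gastrocnemius. Neighbours within an arm did not differ beyond their spread. Mcm7 stood at 2.22 in HLS soleus, and at 1.57 to 1.62 in the other 3 groups, which did not differ beyond their spread. Mcm2 stood at 0.525 in control gastrocnemius, above 0.362 in HLS soleus, 0.342 in HLS gastrocnemius and 0.326 in control soleus. Mcm6 stood at 2.94 in control soleus, 1.77 in control gastrocnemius, 1.66 in HLS soleus and 0.952 in HLS gastrocnemius, and the middle neighbours did not differ beyond their spread.

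Across the 20 arrays the brightest probes of Mcm3, Mcm4, Mcm6 and Pcna followed each other, with pairwise Pearson correlations of 0.80 to 0.92. Mcm5 joined them at 0.63 to 0.78, while Mcm7 correlated with them at -0.09 to 0.18 and Mcm2 at -0.12 to 0.44. Ccnd1 and Ccnd2 correlated at 0.87. After the 4 group means were taken out, Mcm3 and Mcm4 still correlated at 0.83, Pcna and Mcm4 at 0.74 and Ccnd1 and Ccnd2 at 0.59. These points share arrays, animals and the array scaling, and are given as a description. Among 25098 genes compared over the 20 arrays, the profile most like the mean Mcm profile outside the members was that of C80049 (0.902). It was followed by Cdt1, the loader of the Mcm ring (0.891), 4931408D14Rik (0.878), Birc5, a mitotic survivin (0.876), and Olfml2b (0.874). Cdt1 itself stood at -0.47 in HLS soleus and -0.60 in HLS gastrocnemius (adjusted p = 0.14 and 0.074). Most like Ccnd1 were Lsm3 (0.968), Nes, the intermediate filament nestin (0.965), and Hspa5, an endoplasmic reticulum chaperone (0.963). Most like Ccnd2 were Adcy7 (0.951), Slc39a7 (0.950) and Emp1 (0.941). Most like Pcna were Ywhaq (0.957), Sdcbp (0.948) and Rap1b (0.943). For Ccnd3 the closest profile reached 0.800.

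Other genes of the pathway are given from lists chosen by their role. Beside their counts, 5.42% of all probes passed in HLS soleus (2.24% higher, 3.18% lower). In HLS gastrocnemius 2.81% of all probes passed (1.09% higher, 1.72% lower). Of 21 other origin licensing and firing genes, 1 rose and 0 fell in HLS soleus, with a median difference of -0.06. It was Gins1, a subunit of the GINS complex that turns the Mcm ring into an active helicase, at 0.61 ± 0.12 (adjusted p = 0.003). In HLS gastrocnemius Gins1 was again the 1 gene that passed (0.46, adjusted p = 0.037), and the median was -0.10. That call was lost without any 1 of 7 gastrocnemius arrays (0.40 to 0.48, adjusted p up to 0.11). Its second probe did not pass in soleus (0.43, adjusted p = 0.076) or gastrocnemius (0.19, adjusted p = 0.62). Of 30 replication fork genes, 2 rose and 1 fell in HLS soleus. Pole, the leading-strand polymerase, stood at 0.74 (adjusted p = 0.0049) and Pold3, a subunit of polymerase delta, at 0.38 (adjusted p = 0.029). Rpa3, a subunit of the single-strand binding complex, stood at -0.63 (adjusted p = 0.017). Other probes of Pole (0.18) and Pold3 (0.24 and 0.27) did not pass, and the Pold3 call was lost without any 1 of 6 soleus arrays (0.35 to 0.36, adjusted p up to 0.075). In HLS gastrocnemius 0 rose and 2 fell, Rpa3 at -0.66 (adjusted p = 0.022) and Pold1, the catalytic subunit of polymerase delta, at -0.34 (adjusted p = 0.031) and at -0.38 on its second probe (adjusted p = 0.033). The first Pold1 probe lost its call without any 1 of 8 gastrocnemius arrays (-0.35 to -0.30, adjusted p up to 0.097). Rpa3 lost its gastrocnemius call without any 1 of 5 (-0.64 to -0.58, adjusted p up to 0.071).

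Of 28 G1 to S regulators, 27 were kept. In HLS soleus 5 rose, against 2.24% of all probes, and 1 fell, against 3.18%, with a median of 0.10. Cdkn1a, the inhibitor p21 that binds cyclin and Cdk complexes and Pcna, rose by 1.31 ± 0.34 (adjusted p = 0.027) in HLS soleus and by 1.76 ± 0.34 (adjusted p = 0.0059) in HLS gastrocnemius. Its soleus call was lost without HLS array 1 (1.00, adjusted p = 0.069), HLS array 5 (1.23, adjusted p = 0.077), control array 4 (1.26, adjusted p = 0.067) or control array 5 (1.28, adjusted p = 0.051). Rbl2, the retinoblastoma family member p130 of resting cells, rose by 0.65 in soleus and by 0.53 in gastrocnemius (adjusted p = 0.001 and 0.01), and its second probe stood at 0.64 and 0.17 (adjusted p = 0.00032 and 0.47). Tfdp2, a partner of E2F factors, rose by 0.94 in soleus (adjusted p = 0.0098) and stood at 0.75 in gastrocnemius (adjusted p = 0.062), while its other probes did not pass. The remaining genes that rose in HLS soleus, named after their values were seen, were the Cdk inhibitor Cdkn1c (0.79) and the retinoblastoma gene Rb1 (0.58). E2f6, a repressive E2F, fell by 0.38 in soleus and by 0.52 in gastrocnemius (adjusted p = 0.028 and 0.005), and its second probe stood at -0.70 and -0.63 without passing. The soleus call of E2f6 was lost without any 1 of 6 arrays (control 1, 2 or 4, HLS 1, 3 or 5), at -0.38 to -0.33 and adjusted p of 0.052 to 0.08. In HLS gastrocnemius 2 of the 27 rose, against 1.09% of all probes, and 1 fell, against 1.72%. Of 24 S to M phase genes, 23 were kept and none passed in limma in either muscle. An unadjusted p below 0.05 was reached by 2 in soleus and 3 in gastrocnemius, against 6534 and 5354 of all 37373 probes. The 2 S to M phase genes with the lowest p in HLS soleus were Bub1 (0.44, adjusted p = 0.16) and Cenpa (-0.34, adjusted p = 0.18). In HLS gastrocnemius they were Birc5 (-0.49, adjusted p = 0.23) and Kif20a (-0.45, adjusted p = 0.27). These lists overlap in function with the members and do not test them.

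**Figure D4:**
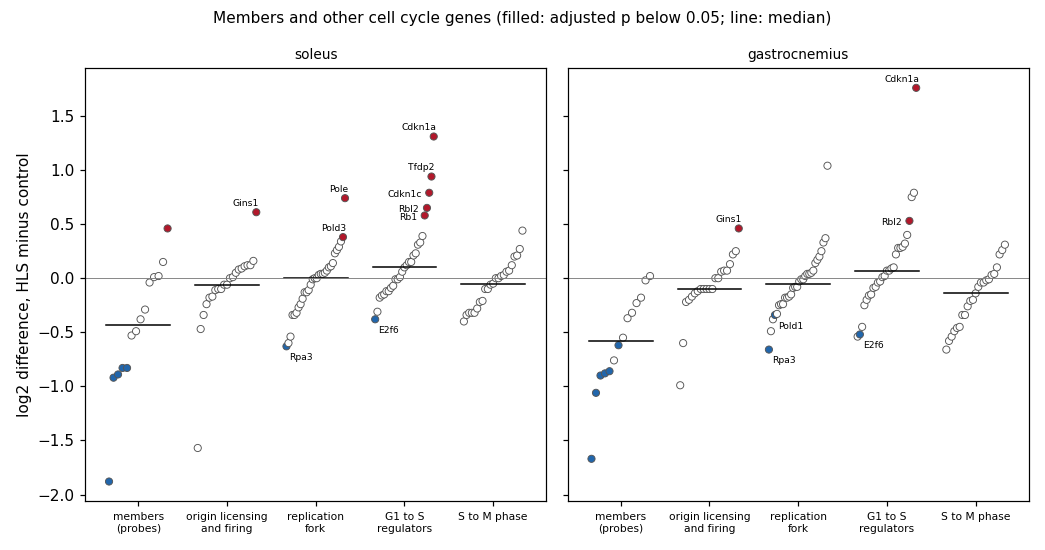
Log2 difference, HLS minus control (vertical axis), of the 14 member probes and of the genes of 4 cell cycle lists (1 probe per gene), in soleus (left) and gastrocnemius (right). Filled points have an adjusted p below 0.05, red above 0 and blue below, and lines mark medians; the member median lies at -0.43 in soleus and -0.59 in gastrocnemius. Scaled to spike-in RNA, the median of all probes shifts to -0.21 in soleus and to 0.79 in gastrocnemius, where the calls of Rpa3, Pold1 and E2f6 change sign.

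Markers of the cells between the fibres were measured beside the members. Of all probes, 5.42% passed in HLS soleus and 2.81% in HLS gastrocnemius. In HLS soleus, of 7 kept satellite cell markers Cdh15 (0.47) and Fgfr4 (0.65) rose and Vcam1 (-0.73) fell. Their summed relative intensity was 6.93 to 8.78 in HLS soleus, against 5.11 to 8.01 in control soleus, and 6.20 to 7.19 in HLS gastrocnemius, against 5.94 to 6.81 in control gastrocnemius. Of 8 smooth muscle and pericyte markers, Tagln (-1.20) and Cspg4 (-0.60) fell in HLS soleus, where 6 of 8 stood below 0 with a median of -0.47. None passed in gastrocnemius, where 5 had an unadjusted p below 0.05, as did 5354 of all 37373 probes. All 8 stood below 0 there, with a median of -0.41. Their summed relative intensity was 217 to 327 in HLS soleus, against 216 to 364 in control soleus, and 241 to 288 in HLS gastrocnemius, against 261 to 327 in control gastrocnemius. Of 8 fibroblast markers 1, Mfap5 (-0.99), fell in HLS soleus, and of 8 endothelial markers 1, Kdr (-1.12), fell in HLS gastrocnemius. Fibroblast sums were 481 to 819 in HLS soleus, against 623 to 809 in control soleus, and 521 to 639 in HLS gastrocnemius, against 525 to 620 in control gastrocnemius. Endothelial sums were 25.2 to 34.2 against 28.1 to 35.0 in soleus, and 23.0 to 30.5 against 24.7 to 29.5 in gastrocnemius, HLS before control. No adipocyte or Schwann cell marker passed, but all 6 of each stood below 0 in both muscles. The adipocyte median was -0.60 in soleus and -0.18 in gastrocnemius, and the Schwann cell median -0.44 and -0.25, beside member medians of -0.43 and -0.59. Adipocyte sums were 127 to 344 in HLS soleus, against 179 to 416 in control soleus, and 79.7 to 97.2 in HLS gastrocnemius, against 86.1 to 102 in control gastrocnemius. Schwann cell sums were 21.1 to 71.4 in HLS soleus, against 22.5 to 95 in control soleus, and 30.8 to 142 in HLS gastrocnemius, against 57.8 to 124 in control gastrocnemius. No macrophage (8), lymphocyte (8) or erythroid (4) marker passed in either muscle, with medians of -0.17, 0.01 and 0.13 in soleus and -0.02, 0.13 and 0.09 in gastrocnemius. All kept markers were above background on all arrays. The part of these cells in the member values was not tested.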

How the data were processed

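Total RNA of each muscle (600 ng) was labelled with Cy3 and hybridised to 1 one-colour Agilent array, per the labels' protocols. The authors' deposited scanner files give a linear intensity for every spot. Per the file headers, Feature Extraction 9.1.3.1 (Agilent) subtracted background and detrended it. Arrays were not scaled to each other. The deposited series values equal that intensity and served as an alternative.

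From these, spots marked uneven were left out, each array was divided by its 75th percentile, log2 was taken, and repeat spots of a probe were averaged. Probes entered the test when 4 of 5 arrays in any 1 group were well above background (37373 of 41174). A means model of the 4 groups over 20 arrays was fitted in limma 3.58.1 (lmFit, eBayes; R 4.3.3, with version 1.17.8 of data.table), two-sided, with Benjamini-Hochberg adjustment over all kept probes. On simulated data with 200 changed probes for the soleus comparison (37126 probes), 10% were recovered at a log2 size of 0.5, 86% at 1, 96% at 1.5 and 100% at 2, and 2.01% of calls were false. The simulated noise was independent between arrays, with no slide, scan day or animal effects, so these rates need not hold for the real arrays. Figures used matplotlib 3.10.9 and pandas 2.3.3.

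The members, the gene and marker lists and the alternatives were chosen with earlier results of these data known. Members are named with all their probes. Each list gives up to 2 genes at either end of those that passed, or the 2 with the lowest p where none did, each by its brightest kept probe; likeness took the 5 closest genes for the Mcm mean and 3 for Pcna and each cyclin. Fbxo32 and Cdkn1a were named as checks. The alternatives were normexp (offset 50), quantile, spike-in scaling, the deposited series values, other filters, a single probe per gene, slide and scan day blocks, fewer arrays and each array left out. Replicate arrays correlated at 0.9676 to 0.9863. Both muscles of a mouse were paired by the replicate number in the labels. Their deviations from the group means correlated at -0.34 to 0.165 (median 0.0294, 10 animals). Arrays of 1 muscle with the same number in HLS and control, from different mice, correlated at -0.299 to 0.157. Promoter windows are from RefSeq (GRCm38.p6).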

Additional observations from a re-analysis of the deposited data

Results flagged for a closer look

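Of 56 groups of 5 arrays tested over the 14 member probes, 5 held an array far from the other 4 (gap over range above 0.71); chance gives about 1 in 20 such groups. Mcm2 was lowest at 0.253 on gastrocnemius HLS array 1, where the other 4 read 0.345 to 0.386, and at 0.279 on soleus control array 1, where the others read 0.33 to 0.353. Mcm6 was lowest at 1.12 on gastrocnemius control array 1, where the others read 1.79 to 2.11. Soleus control array 4 was highest for Mcm4 probe A_51_P356762 at 3.46 (others 2.09 to 2.37) and for Pcna at 5.08 (others 3.3 to 3.71). The same array was also the highest control soleus for Mcm3 probe A_51_P324934, Mcm5, Mcm6 and Ccnd1, without being set apart by that measure. It was not the highest for Mcm2, Mcm7, Ccnd2, Ccnd3 or the other probes of Mcm3 and Mcm4.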

How the results depend on the processing

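Scaled to the spike-ins, 4616 probes passed in soleus (4.55% of them higher, against 41.3% of 2025). In gastrocnemius 34776 passed (99.9% higher, against 38.8% of 1049). In the interaction 34308 passed, and between control muscles 33089 (99.5% higher, against 33.5%). Of the 14 member probes, 12 then passed in the interaction and 14 between control muscles. Counts of members in this section are counts of these probes, not of genes. Quantile normalization moved the higher share to 46.5% between control muscles and to 49% (main 37.7%) between HLS muscles. Signs turned with the spike-ins, all by the shift of the array as a whole. In gastrocnemius the values became 0.15 (Mcm2), 0.60 and 0.46 and 0.75 (Mcm3 A_52_P364776, both Mcm4 probes), 0.41 (Pcna), 0.54 (Ccnd3), 0.12 (Rpa3), 0.25 (E2f6), 0.57 (Bub1), 0.58 (Cenpa) and 0.44 (Pold1), and, with no call on either scale, 0.02 (Mcm3 A_51_P324934) and 0.23 (Ccnd2 A_52_P514391). In the interaction they became -0.81 and -0.85 (Mcm3), -1.01 (Mcm4 A_51_P356762), -1.0 (Mcm6), -0.60 (Mcm7), -1.03 and -1.01 (Ccnd2) and -0.79 (Ccnd3), and, with no call on either scale, -0.27 (Mcm2) and -0.47 (Mcm5). Between control muscles they became 0.37 (Mcm2), 1.04 (Mcm4 A_52_P231545) and 1.05 (Mcm5, Ccnd3).

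With slide as a fixed block 23 probes passed in soleus, 18 in gastrocnemius and 0 in the interaction, and 0 members. It could not be fitted for the muscle comparisons. Blocked on scan day, 981, 65, 2 and 2021 probes passed in soleus, gastrocnemius, the interaction and between control muscles, with 2 members in each HLS comparison and 1 in each muscle comparison. With 10 arrays alone, 895 probes and 1 member passed in soleus, and 5 members between control muscles. With 1 probe per gene name 2 passed in the interaction, and with normexp 5 members passed between control muscles. With the replicate block, 545 probes and 1 member passed in soleus, 535 probes in gastrocnemius and 2 in the interaction. Control and HLS mice of 1 number are different animals, so that block pairs nothing in the HLS comparisons.

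Leaving out 1 array gave 603 to 1204 probes in gastrocnemius (603, 697 and 640 without control array 2, control array 3 and HLS array 5) and 2 to 30 in the interaction, where 10 arrays gave 7 or fewer and soleus HLS array 1 gave 30. Members passing ranged from 3 to 8 in gastrocnemius (3 without HLS array 5), 1 to 5 between control muscles (1 without soleus control array 4 or gastrocnemius control array 1; 5 without soleus control array 1 or 2, gastrocnemius control array 3 or soleus HLS array 5) and 3 to 8 between HLS muscles (3 without soleus HLS array 4, 8 without soleus HLS array 5). The cause of these losses was not tested. Apart from single arrays left out, the HLS differences of the members gave 164 alternative values in each muscle. Only those of the 6 member probes that passed in a muscle had a call to lose. Of these, 22 in soleus and 14 in gastrocnemius lost it without a turn in sign. In gastrocnemius Mcm2 also lost its call with spike-in scaling, where its sign turned. Apart from spike-in scaling, none that passed turned in sign.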
